A study of Mus musculus with 20 samples.

Results

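Transcripts of 10 genes of the unfolded protein response of the endoplasmic reticulum (ER) were followed in mouse liver: Xbp1, Hspa5, Hsp90b1, Dnajb9, Herpud1, Sdf2l1, Pdia4, Calr, Hyou1 and Creld2. They were chosen by name, with earlier results of these data known. All 10 were found among the 28100 genes listed in the deposited count tables. The data are RNA read counts from livers of 20 male C57BL/6J mice that received an AAV8 vector intravenously at 8 weeks of age and then a diet named HF/HS until 25 weeks. In the knockdown experiment 5 mice received a hairpin against Pklr, the liver and red cell pyruvate kinase gene (shPKLR), and 5 a hairpin against firefly luciferase (shLUC). In the overexpression experiment 5 received the Pklr coding sequence (PKLR) and 5 received GFP. Per the series text, every vector was driven by the thyroxine binding globulin promoter, a hepatocyte promoter, while the RNA came from liver tissue with all its cell types. All 4 groups thus share the virus, the promoter and the diet, and untreated mice or mice on another diet were not analysed here. The labels number the livers 1 to 5 in each group without naming the animals, so p-values measure the spread between these livers.

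Proteins that are secreted or inserted in membranes fold in the ER, and hepatocytes, which secrete most plasma proteins, carry a heavy load of them. When unfolded proteins build up, 3 sensors in the ER membrane respond: IRE1 (gene Ern1), which splices Xbp1 messenger RNA so that it encodes an active transcription factor, ATF6, which is cleaved to release one, and PERK (Eif2ak3), which slows translation and favours ATF4. XBP1 and ATF6 then raise genes for chaperones, folding enzymes and the removal of misfolded proteins. The label of the set, ER chaperones, describes most but not all of its genes: Xbp1 encodes a transcription factor and Herpud1 a membrane protein of ER-associated degradation. Counts per gene cannot separate spliced from unspliced Xbp1.

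Promoters of chaperone genes carry the ER stress response element, a CCAAT box and the sequence CCACG held at a fixed distance, at which NF-Y and ATF6 or XBP1 bind. RefSeq promoter windows (GRCm38.p6) were matched for 9 of the 10 genes, all but Hyou1, and the 250 bases before the start were searched on both strands. The element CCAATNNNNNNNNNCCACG was present before Hspa5, Hsp90b1, Calr and Creld2, that is 4 of 9 genes, against 37 of 32851 windows in all (0.113%). Here the set is counted by gene and the total by window, with the set's own windows included. The related element ATTGGNCCACG was present before Herpud1, against 10 windows in all (0.03%). The windows of Xbp1, Dnajb9, Sdf2l1 and Pdia4 held neither string. The matches are shown because the element is the known meeting point of the pathway's factors; each is read 5′ to 3′ along the gene's strand, capitals mark the parts of the element, and an element on the opposite strand reads CGTGG and then ATTGG.
Hspa5, chr2:34772020-34772048, plus strand: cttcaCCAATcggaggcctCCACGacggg
Hsp90b1 far element, chr10:86705633-86705661, minus strand: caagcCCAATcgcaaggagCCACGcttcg
Hsp90b1 near element, chr10:86705528-86705556, minus strand: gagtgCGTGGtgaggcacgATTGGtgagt
Calr, chr8:84847070-84847098, minus strand: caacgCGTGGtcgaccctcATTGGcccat
Creld2, chr15:88819515-88819543, plus strand: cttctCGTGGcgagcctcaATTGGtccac
Herpud1, chr8:94386372-94386392, plus strand: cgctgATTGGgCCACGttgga
The Hspa5 element ends 47 bases before the RefSeq start, and those of Hsp90b1 end 194 and 89 bases before it. The XBP1 core ACGTG was found before Hspa5, Dnajb9, Herpud1 and Calr, against 16.572% of all windows, and in Herpud1 it overlaps the printed element. A match is a string of letters and not a measured binding site.

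Of the 20 libraries 19 held between 29933820 and 45413803 counts, and shPKLR replicate 4 held 167891680. Each of the 10 genes had at least 473 counts in every library. Levels are given as CPM, counts scaled to a common library size, with TMM scaling over all 20 libraries. Pklr followed the vectors: it was at 479 ± 116 CPM with shLUC, 54.9 ± 23.3 CPM with shPKLR, 118 ± 34.5 CPM with GFP and 742 ± 210 CPM with PKLR (SD, n = 5 each). The control groups thus differed in Pklr itself, with a log2 difference of GFP less shLUC of -2.02 (SE 0.30, edgeR adjusted p = 0.0013), and here the vector and the experiment cannot be told apart. Hepatocyte markers were abundant, with the summed level of Alb, Ttr, Apoa1, Hnf4a and Cps1 between 57367 and 108757 CPM in all livers. Plasma cells and pancreatic acinar cells also express ER chaperones strongly. The plasma cell markers Jchain and Mzb1 stayed under 3 CPM in every liver and Tnfrsf17 had a median of 0. On the same list Iglc2 was at or under 0.511 CPM, but Igkc ran from 4.04 to 20.2 CPM and Sdc1 from 70.7 to 231 CPM. The acinar markers Cela2a and Cpa1 were at or under 0.539 CPM. Igkc, Sdc1 and the acinar gene Cela1 are taken up with the other cell markers. In bulk liver RNA, fewer cells of a type and less RNA per cell cannot be told apart.

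Per kilobase of exon, Calr was the most abundant of the 10 in every group, at 272 ± 44.3 CPM per kb with shLUC, and Dnajb9 the least, at 9.93 ± 1.43 CPM per kb (SD, n = 5 each). Between them in shLUC livers stood Hspa5 at 129 ± 30.6 CPM per kb, Herpud1 at 96.1 ± 8.22, Hsp90b1 at 81.2 ± 9.60, Pdia4 at 79.5 ± 12.7 and Xbp1 at 40.8 ± 6.74 (SD, n = 5 each). Sdf2l1 (21.5 ± 10.3), Hyou1 (19.3 ± 5.75) and Creld2 (18.4 ± 8.30) lay within 1 SD of each other on this scale (SD, n = 5 each). Hsp90b1 and Pdia4 likewise differed by less than their SD.

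**Figure D1:**
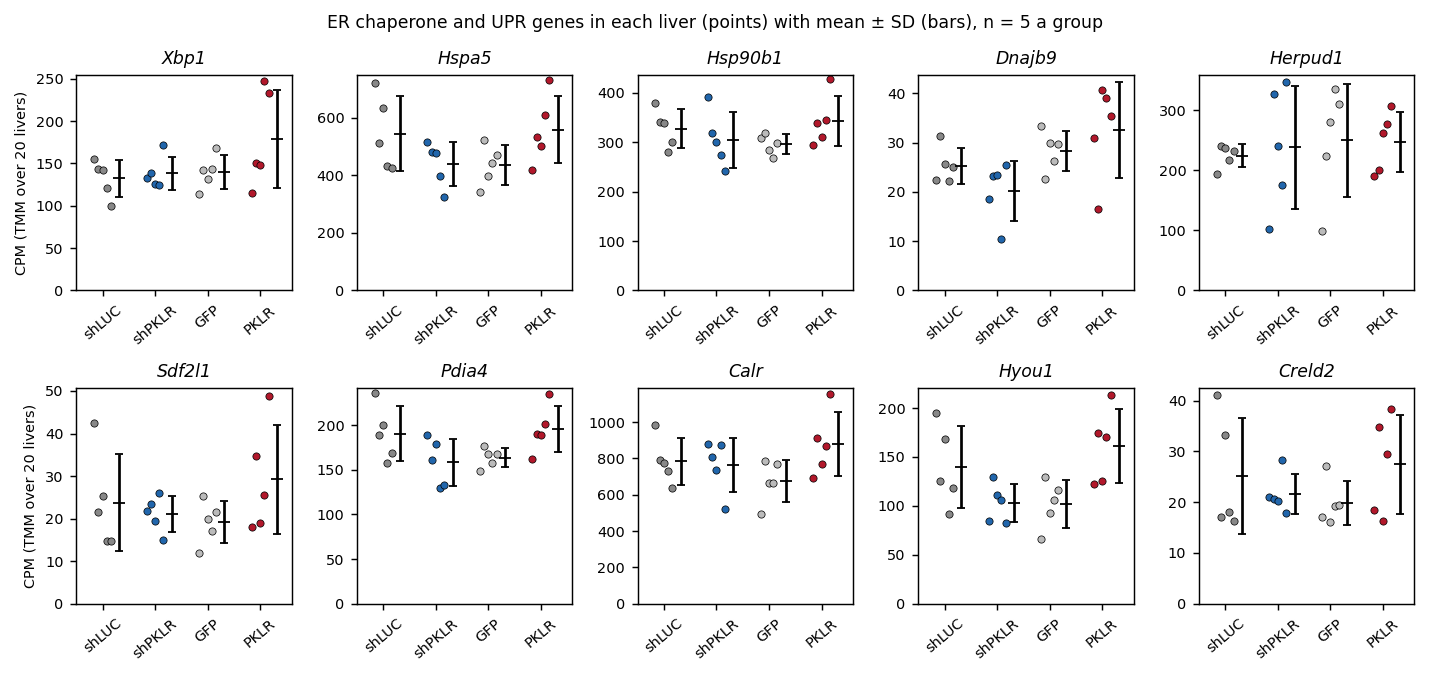
CPM (vertical axes, from 0, TMM scaling over 20 livers) of the 10 genes in each of 5 shLUC, shPKLR, GFP and PKLR livers (points), with the mean ± SD as a bar beside them. The PKLR mean is the highest of the 4 for all genes but Herpud1, and the groups overlap for every gene.

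The 4 genes of the HSP70 system of the ER are taken first. Hyou1 (ENSMUSG00000032115; GRCm38 chromosome 9, 44379490 to 44392369) encodes GRP170, a large HSP70-like chaperone that drives nucleotide exchange on HSPA5. Its levels in shLUC livers 1 to 5 were 195, 126, 169, 91.4 and 118 CPM, and in shPKLR livers 85.0, 129, 111, 106 and 82.9 CPM. In GFP livers they were 65.7, 129.9, 92.4, 106 and 116 CPM, and in PKLR livers 122, 174, 125, 170.1 and 213 CPM. In the overexpression experiment 1 GFP liver (replicate 2) lay above the PKLR livers 1 and 3, and the other GFP livers lay below all PKLR livers. In the knockdown experiment shLUC livers 1 and 3 lay above all shPKLR livers and the rest were intermixed. Knockdown gave a log2 fold change of -0.45 (SE 0.20, edgeR adjusted p = 0.33) and overexpression one of 0.68 (SE 0.20, edgeR adjusted p = 0.10).

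Hspa5 (ENSMUSG00000026864; chromosome 2, 34771970 to 34777547) encodes BiP, the main HSP70 chaperone of the ER and the protein that holds the sensors inactive. It stood at 721, 513, 633, 432 and 424 CPM in shLUC livers 1 to 5 and at 516, 480.2, 477, 397 and 325 CPM in shPKLR livers. The values were 340.3, 522, 399, 444 and 469.7 CPM with GFP and 419, 533, 501, 610.3 and 729.5 CPM with PKLR. As for Hyou1, shLUC livers 1 and 3 were above every shPKLR liver, and PKLR livers 2, 4 and 5 were above every GFP liver. The knockdown log2 fold change was -0.32 (SE 0.18, adjusted p = 0.39) and that for overexpression 0.38 (SE 0.16, adjusted p = 0.21).

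Sdf2l1 (ENSMUSG00000022769; chromosome 16, 17130138 to 17132383), whose product binds BiP complexes and slows protein aggregation, had a wide spread within groups. It was at 42.5, 21.7, 25.4, 14.7 and 14.7 CPM in shLUC livers 1 to 5 and at 21.7, 23.5, 19.4, 26.1 and 14.9 CPM in shPKLR livers. With GFP it was at 12.0, 25.3, 19.9, 17.1 and 21.7 CPM, and with PKLR at 18.1, 34.7, 18.9, 25.6 and 48.9 CPM. A few livers, shLUC 1 and PKLR 2 and 5, carried the high values. The log2 fold changes were -0.18 (SE 0.27, adjusted p = 0.75) for knockdown and 0.62 (SE 0.29, adjusted p = 0.29) for overexpression.

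Dnajb9 (ENSMUSG00000014905; chromosome 12, 44205559 to 44210326) encodes ERdj4, a J-domain partner of BiP that helps keep IRE1 inactive. It ranged from 22.2 to 31.2 CPM in shLUC livers and was at 18.5, 23.3, 23.4, 10.4 and 25.5 CPM in shPKLR livers 1 to 5. It was between 22.6 and 33.3 CPM in GFP livers, and in PKLR livers at 31.0, 16.6, 40.6, 39.1 and 35.5 CPM. The lowest level in all 20 livers was that of shPKLR 4, the deepest library. The log2 fold change for knockdown was -0.34 (SE 0.21, adjusted p = 0.43) and -0.17 without that liver (adjusted p = 0.67). For overexpression it was 0.21 (SE 0.21, adjusted p = 0.63).

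Next come the HSP90 chaperone, the lectin chaperone and the folding enzymes. Hsp90b1 (ENSMUSG00000020048; chromosome 10, 86690209 to 86705509) encodes GRP94, the HSP90 of the ER. Its exons share 415 of 4032 bases with the opposite-strand 1810014B01Rik, whose median count was 42.5 in the knockdown and 46 in the overexpression libraries, so shared reads cannot be told apart without the strand setting. It ranged from 280 to 379 CPM with shLUC, 241 to 392 CPM with shPKLR, 268 to 319 CPM with GFP and 295 to 428 CPM with PKLR. Its log2 fold changes, -0.11 (SE 0.15, adjusted p = 0.70) and 0.23 (SE 0.11, adjusted p = 0.28) for knockdown and overexpression, were among the smaller ones of the set.

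Calr (ENSMUSG00000003814; chromosome 8, 84841850 to 84846934) encodes calreticulin, which binds calcium and folds glycoproteins. It was at 986, 790.1, 773, 729 and 639 CPM in shLUC livers 1 to 5 and at 879, 810.5, 739, 876 and 522 CPM in shPKLR livers. With GFP it was at 492.8, 786, 667, 666 and 772 CPM, and with PKLR at 693, 913, 768, 866 and 1156 CPM. The 2 hairpin groups overlapped over most of their range, with a log2 fold change of -0.04 (SE 0.17, adjusted p = 0.90). With PKLR, 3 livers were above all GFP livers, and the log2 fold change was 0.39 (SE 0.16, adjusted p = 0.21).

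Pdia4 (ENSMUSG00000025823; chromosome 6, 47796141 to 47813430) encodes ERp72, a protein disulfide isomerase. Its levels were 237, 189, 201, 158 and 169 CPM in shLUC livers 1 to 5 and 189, 161, 178, 130.2 and 133 CPM in shPKLR livers. They were 149, 177, 167, 157 and 168 CPM with GFP and 162, 190.7, 189.5, 202 and 234 CPM with PKLR. Here 4 of the 5 PKLR livers exceeded every GFP liver, and PKLR liver 1 lay inside the GFP range. The log2 fold changes were -0.28 (SE 0.15, adjusted p = 0.38) for knockdown and 0.27 (SE 0.10, adjusted p = 0.17) for overexpression.

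Creld2 (ENSMUSG00000023272; chromosome 15, 88819646 to 88826683), an ER-resident protein with EGF-like domains that is known as a target of ER stress, ranged from 16.3 to 41.1 CPM with shLUC and 17.8 to 28.3 CPM with shPKLR. It ranged from 16.2 to 27.2 CPM with GFP and 16.3 to 38.4 CPM with PKLR. The group ranges overlapped in each experiment, with log2 fold changes of -0.23 (SE 0.26, adjusted p = 0.66) and 0.49 (SE 0.24, adjusted p = 0.32).

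The last pair are the transcription factor and the degradation gene. Xbp1 (ENSMUSG00000020484; chromosome 11, 5520659 to 5525893) was at 155, 143.5, 142, 121 and 100.1 CPM in shLUC livers 1 to 5 and at 132, 138, 126, 124 and 172 CPM in shPKLR livers. With GFP it was at 113, 142, 132, 143 and 168 CPM, and with PKLR at 115, 150.1, 149, 248 and 233 CPM. PKLR livers 4 and 5 stood far above the rest while the other PKLR livers lay in the GFP range. The log2 fold change for knockdown was 0.06 (SE 0.14, adjusted p = 0.86) and that for overexpression 0.37 (SE 0.20, adjusted p = 0.35). PKLR liver 4 also had the lowest Pklr of its group, 378 CPM against 769 to 913 CPM in the other PKLR livers.

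Herpud1 (ENSMUSG00000031770; chromosome 8, 94386438 to 94395377) was at 194, 241, 237, 217 and 232 CPM in shLUC livers 1 to 5 and at 103, 327, 241, 176 and 347 CPM in shPKLR livers. With GFP it was at 99.6, 224, 280.4, 335 and 310.4 CPM, and with PKLR at 190.04, 200.3, 262, 277 and 307 CPM. An antisense gene, Gm15890, overlaps Herpud1 but shares 0 exon bases with it. The spread within the shPKLR and GFP groups was over 3-fold, and shPKLR 1 and GFP 1 held the lowest levels. The means with GFP (249.9 ± 93.8 CPM) and PKLR (247 ± 50.4 CPM; SD, n = 5 each) were close to each other. The log2 fold changes were 0.08 (SE 0.26, adjusted p = 0.88) and 0.00 (SE 0.28, adjusted p = 0.999).

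The knockdown comparison asked whether these transcripts differ when Pklr is reduced. Of the 10 genes, 8 had a log2 fold change below 0, against 47.2% of all genes tested, and 2 (Xbp1 and Herpud1) above 0, with a median log2 fold change of -0.20 against 0.02 over all genes tested. None of the 10 passed edgeR's quasi-likelihood test at an adjusted p of 0.05, where 0.00641% of 15611 genes were called, and none passed with DESeq2 or limma-voom. At an unadjusted p under 0.05 there was 1 of the 10, Hyou1, against 15% of all genes. No gene of the set had groups without overlap, against 3.22% of all genes. Liver shLUC 1 carried much of the difference: without it 5 of the 10 log2 fold changes were above 0 and the median was -0.02.

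The overexpression comparison asked whether they differ when Pklr is raised. Means were higher with PKLR for all 10 in the fit, with a log2 fold change of 0.0006 for Herpud1 and of 0.21 to 0.68 for the other genes, and Herpud1 was at -0.0098 under RLE scaling. The median was 0.37 against 0.01 over all genes tested, of which 51.1% were higher. None passed edgeR at an adjusted p of 0.05, where 2.03% of 15842 genes were called; DESeq2 called 1 (Hyou1, log2 fold change 0.67, adjusted p = 0.021) and limma-voom 0. At an unadjusted p under 0.05 there were 4, Hspa5, Pdia4, Calr and Hyou1, all higher with PKLR. Of all genes 18.8% had such a p in either direction and 9.68% were higher with it. No gene of the set had groups without overlap, against 4.87% of all genes. Without PKLR replicate 5 the median was 0.25, with 9 of 10 above 0.

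**Figure D2:**
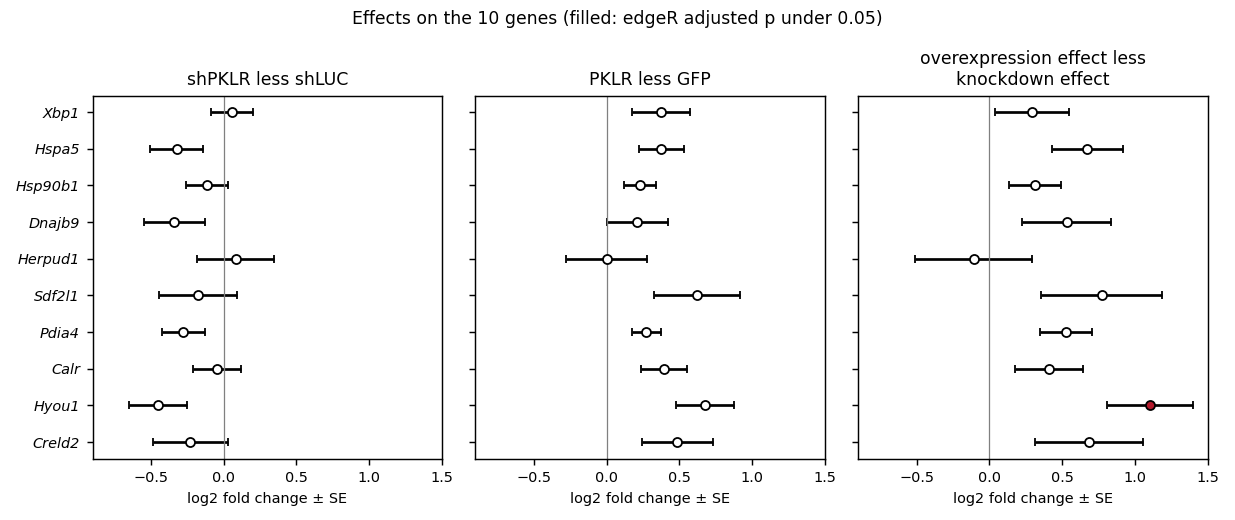
Log2 fold change ± SE (horizontal axes) of the 10 genes for shPKLR less shLUC, PKLR less GFP, and the overexpression effect less the knockdown effect, each from edgeR fits of 5 livers a group. Filled points have an adjusted p under 0.05, which holds for Hyou1 (1.10, SE 0.29) in the third panel only.

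A model of all 20 livers tested whether the effects of raising and of reducing Pklr differed. The difference is signed, overexpression less knockdown, so a fall with shPKLR and a rise with PKLR add up. It does not show which effect was larger in size: for Dnajb9 that was the knockdown effect (-0.34 against 0.21). The difference was above 0 for 9 of the 10 genes, against 44.6% of all genes, Herpud1 being the exception at -0.11 (SE 0.40). The median difference was 0.53 on the log2 scale against -0.06 over all genes tested. Hyou1 was the 1 gene of the set that passed, at 1.10 (SE 0.29, edgeR adjusted p = 0.034), where 5.5% of 16407 genes were called in either direction and 2.75% upward. At an unadjusted p under 0.05 there were 3, Hyou1, Pdia4 and Hspa5, all upward, against 25.7% in either direction and 10.2% upward. Pdia4 (0.53, SE 0.18, adjusted p = 0.080) and Hspa5 (0.67, SE 0.25, adjusted p = 0.0998) came next, followed by Sdf2l1 (0.77, SE 0.41, adjusted p = 0.24) and Creld2 (0.69, SE 0.37, adjusted p = 0.25). Markers of macrophages, stellate cells and plasma cells also passed in this model, in the other direction, as given with the other cell markers. The Hyou1 difference stayed between 0.96 and 1.22 with any 1 liver left out, with adjusted p-values from 0.021 to 0.065. The call was lost in 8 of these 20 fits, those without shLUC 1, 2 or 3, shPKLR 1, GFP 1 or 4, or PKLR 4 or 5. Without both PKLR 5 and shLUC 1 the difference was 0.84 (adjusted p = 0.11).

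Across the 4 groups, 9 of the 10 genes had their highest mean with PKLR, against 20.1% of all genes tested, and 6 had their lowest mean with GFP, against 23.1%. For 7 genes (Hspa5, Hsp90b1, Sdf2l1, Pdia4, Calr, Hyou1 and Creld2) the means with PKLR and shLUC were both above the means with GFP and shPKLR, an order found in 19.4% of all genes. Pklr also had its PKLR and shLUC means above the other 2, but its lowest mean was with shPKLR. Of the 7 genes only Pdia4 was lowest with shPKLR too, and the other 6 were lowest with GFP. Single livers within groups are taken up below. Hyou1, for example, was at 161 ± 38.0 CPM with PKLR, 140 ± 41.6 with shLUC, 103 ± 19.4 with shPKLR and 102 ± 24.5 with GFP (SD, n = 5 each). Each pair of neighbours in this order differed by less than the larger of their SDs. None of the 10 differed between GFP and shLUC at an adjusted p of 0.05 in edgeR, DESeq2 or limma-voom, where edgeR called 5.81% of all genes. At an unadjusted p under 0.05 there was 1, Hyou1 (-0.46, SE 0.21), against 19.7%. For the other genes the log2 differences ran from -0.34 for Creld2 to 0.16 for Dnajb9 and Herpud1.

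**Figure D3:**
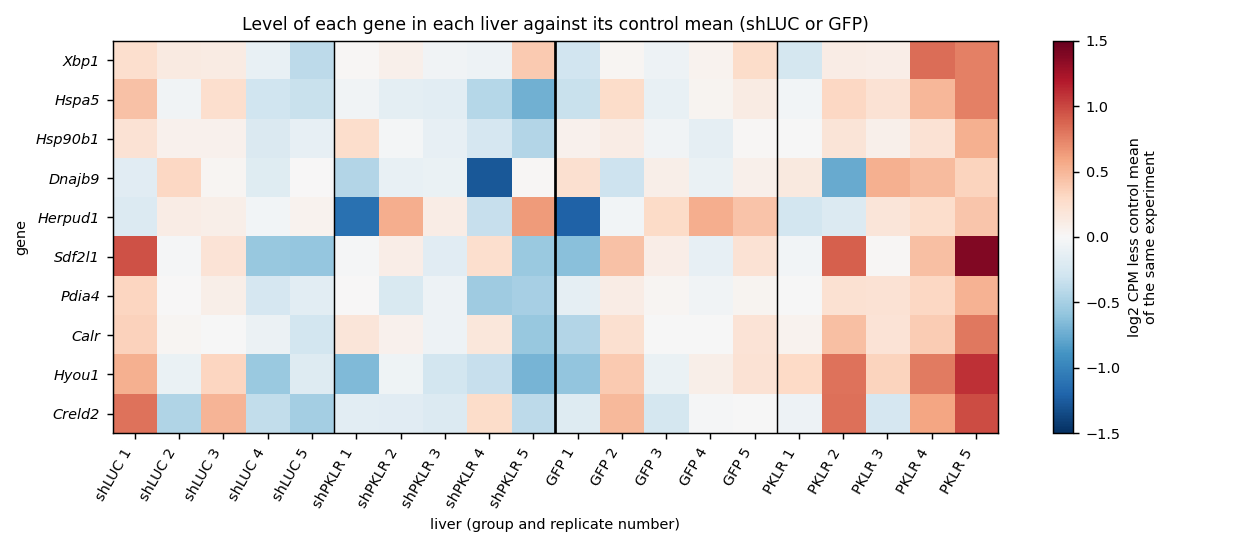
Log2 CPM of each gene (rows) in each liver (columns) less the mean of the control group of the same experiment (shLUC or GFP), with red above and blue below it. PKLR livers 4 and 5 are above the GFP mean for all 10 genes, and shLUC liver 4 is below the shLUC mean for all 10.

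In 3 of the 4 groups the same livers tended to be high or low for many genes of the set. PKLR 5 had the highest level of its group for 8 of the 10 genes and PKLR 1 the lowest for 8, GFP 2 the highest for 7 and GFP 1 the lowest for 7, and shLUC 1 the highest for 8. In the shPKLR group no liver held one end for more than 6 genes: replicate 5 was the lowest for 6 and the highest for 3, replicate 1 the highest for 4 and replicate 4 the highest for 2 and the lowest for 3. Averaged over the 10 genes, levels against the control mean ran on the log2 scale from -0.27 to 0.35 in shLUC livers and from -0.28 to 0.0039 in shPKLR livers. They ran from -0.35 to 0.17 in GFP livers and from -0.02 to 0.76 in PKLR livers. Within groups these averages did not go with Pklr throughout. The shLUC livers 1 and 3 had the least Pklr of their group (376 and 355 CPM) and the highest averages (0.35 and 0.17). PKLR 4 had the least of its group (378 CPM) and an average of 0.48. In the GFP group replicate 1 had the least Pklr (64.4 CPM) and also the lowest average. Whether the set follows Pklr within groups was not tested.

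Taking each gene's deviations from its group mean over the 20 livers as a description, Hspa5 (Pearson r = 0.89), Hyou1 (0.88), Sdf2l1 (0.81), Pdia4 (0.76), Calr (0.74) and Xbp1 (0.71) followed the mean of the other 9 most closely. Creld2 (0.63) and Hsp90b1 (0.58) followed it less, while Herpud1 (0.20) and Dnajb9 (-0.13) hardly did. Without PKLR 5 and shLUC 1, the livers farthest from the median, these values were 0.85 for Hspa5, 0.86 for Hyou1 and 0.39 for Hsp90b1. The points share library depth and scaling, and the genes were not compared with other sets. Among 10461 other named genes that averaged 2 CPM or more in each experiment, the 5 most like the set's mean were Dnajb11 (r = 0.94, rho = 0.91), Rpn1 (r = 0.89, rho = 0.82), Prkcsh (r = 0.88, rho = 0.85), Pdia6 (r = 0.87, rho = 0.82) and Slc9a3r1 (r = 0.86, rho = 0.80). They were picked for this likeness, so no p is given. Dnajb11 encodes ERdj3, another J-domain partner of BiP, Rpn1 a subunit of the oligosaccharyltransferase, Prkcsh a subunit of glucosidase II and Pdia6 a disulfide isomerase. Slc9a3r1 was on none of the gene lists used here, and neither was Prkcsh. Dnajb11 itself was at 65.2 ± 6.87 CPM with GFP and 81.3 ± 18.1 CPM with PKLR (SD, n = 5 each), and its overexpression effect was 0.33 (SE 0.14, adjusted p = 0.22).

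Other genes of the pathway were followed by lists, beside which the shares over all genes tested are given. Those were 15% at an unadjusted p under 0.05 in the knockdown and 18.8% in the overexpression, and 5.5% called in the model of all livers. Among 12 sensors and transcription factors none passed edgeR in either experiment. At an unadjusted p under 0.05, 2 were lower with shPKLR, where 5.66% of all genes were. With PKLR 3 were higher, where 9.68% of all genes were. The sensor genes Ern1 (0.26, SE 0.09, adjusted p = 0.14), Atf6 (0.15, SE 0.07, adjusted p = 0.24) and Eif2ak3 (0.10, SE 0.11, adjusted p = 0.70) had these log2 fold changes in the overexpression. In the knockdown they were at -0.22 (SE 0.18), -0.32 (SE 0.22) and -0.23 (SE 0.13). Atf6b, a relative of Atf6, passed in the model of all livers, with a difference of 0.53 (SE 0.16, adjusted p = 0.049), but of 20 fits with 1 liver left out it passed in 6, those without shLUC 4, shPKLR 2 or 3, GFP 2 or 5, or PKLR 1. It also fell short without a filter (adjusted p = 0.067), with shPKLR 4 thinned (0.057) and without both PKLR 5 and shLUC 1 (0.14).

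Of 24 further ER folding genes, 2 rose with PKLR, where 1.19% of all genes rose, and none passed in the knockdown, where 1 had an unadjusted p under 0.05 against 15% of all genes. Hspa13, an HSP70-like protein of microsomes, rose with PKLR, from 18.2 ± 1.27 to 23.95 ± 1.63 CPM (SD, n = 5 each), a change of 0.41 (SE 0.07, edgeR adjusted p = 0.019) that fell short without PKLR 3, and all PKLR livers (22.1 to 25.5 CPM) were above all GFP livers (16.1 to 19.3 CPM). With shPKLR it was at 14.6 ± 3.58 CPM against 22.5 ± 3.36 CPM with shLUC (SD, n = 5 each; -0.64, SE 0.18, adjusted p = 0.22). Its signed difference, overexpression less knockdown, was 1.03 (SE 0.20, adjusted p = 0.0062), a call held in 20 of 20 fits with 1 liver left out. Ero1lb, an oxidase that recharges disulfide isomerases, rose from 39.5 ± 4.74 to 64.5 ± 12.4 CPM (SD, n = 5 each; 0.72, SE 0.13, adjusted p = 0.019) and was at -0.07 (SE 0.22) in the knockdown. Its groups did not overlap either, with GFP livers at 32.7 to 43.8 CPM and PKLR livers at 51.9 to 85.2 CPM. In shLUC livers, however, Ero1lb ranged from 37.9 to 86.2 CPM (58.1 ± 18.5 CPM, SD, n = 5), which spans the PKLR range. It did not pass for GFP less shLUC (-0.55, SE 0.19, adjusted p = 0.10). Nor did it pass in the model of all livers (0.76, SE 0.27, adjusted p = 0.095). In 1 fit of all 20 livers neither call held (adjusted p = 0.16 for Hspa13 and 0.062 for Ero1lb). The list's median was 0.17 with PKLR and -0.08 with shPKLR.

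Of 25 genes for entry into the ER and export from it, 23 were higher with PKLR, against 51.1% of all genes. With shPKLR 20 were lower, against 47.2%. The medians were 0.16 with PKLR and -0.19 with shPKLR. None passed with shPKLR, where 6 were lower at an unadjusted p under 0.05, against 5.66% of all genes. In this list 1 gene rose, Sec23b, a coat subunit of vesicles that leave the ER, from 25.7 ± 3.08 to 35.6 ± 4.86 CPM (SD, n = 5 each; 0.49, SE 0.11, adjusted p = 0.043). That call was lost under RLE scaling (adjusted p = 0.051), in 1 fit of all 20 livers (0.052) and held in 3 of 10 fits with 1 liver left out, those without GFP 5, PKLR 1 or PKLR 2. Sec23b also differed between the controls, at -0.50 for GFP less shLUC (SE 0.13, adjusted p = 0.020). In the model of all livers 4 of 25 passed, against 5.5% of all genes: Sec23b (0.91, SE 0.18, adjusted p = 0.0057), Ssr1 (0.62, SE 0.14, adjusted p = 0.013) and Ssr3 (0.64, SE 0.16, adjusted p = 0.0296), subunits of the translocon-associated complex, and Stt3a (0.61, SE 0.15, adjusted p = 0.022), a catalytic subunit of the oligosaccharyltransferase. The last 3 are named after their values were seen. Sec23b, Ssr1 and Stt3a held their calls in 20 of 20 fits with 1 liver left out and Ssr3 in 15, failing without shLUC 1 or 2, GFP 1, or PKLR 3 or 5. Without both PKLR 5 and shLUC 1, Stt3a (adjusted p = 0.070) and Ssr3 (0.092) did not pass.

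Of 18 genes of ER-associated degradation none passed in either experiment, with medians of 0.09 with PKLR and -0.21 with shPKLR. At an unadjusted p under 0.05, 4 were lower with shPKLR, where 5.66% of all genes were. Likewise 4 were higher with PKLR, where 9.68% of all genes were. In the model of all livers 3 of 18 passed, against 5.5% of all genes: Sel1l (0.70, SE 0.18, adjusted p = 0.028), which with the ligase HRD1 forms the core of the degradation complex, Derl2 (0.59, SE 0.16, adjusted p = 0.039), a channel component, and Herpud2 (0.97, SE 0.27, adjusted p = 0.041), a relative of Herpud1. With 1 liver left out the calls held in 14, 7 and 7 of 20 fits. Sel1l failed without shLUC 1, 2 or 5, GFP 1, or PKLR 4 or 5. Derl2 held without shPKLR 1, 2, 4 or 5, GFP 3 or 5, or PKLR 1, and Herpud2 without shLUC 3, shPKLR 2, 3, 4 or 5, GFP 5 or PKLR 2. None of the 3 passed without both PKLR 5 and shLUC 1 (adjusted p = 0.091, 0.089 and 0.088), and Derl2 differed between the controls, at -0.51 for GFP less shLUC (SE 0.12, adjusted p = 0.013). Edem1, which selects misfolded glycoproteins, was at -0.40 (SE 0.15, adjusted p = 0.29) in the knockdown.

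The PERK and ATF4 branch was listed with 13 genes, of which none rose and 2 fell with PKLR, where 0.846% of all genes fell: Asns, asparagine synthetase, from 4.59 ± 2.99 to 0.98 ± 0.39 CPM (SD, n = 5 each; -2.21, SE 0.44, adjusted p = 0.032), and Atf5, a transcription factor, from 571 ± 76.4 to 395 ± 43.3 CPM (SD, n = 5 each; -0.51, SE 0.11, adjusted p = 0.040). Atf4 (0.11, SE 0.10) and Ddit3, which encodes CHOP (-0.23, SE 0.14), did not pass in the overexpression (adjusted p = 0.58 and 0.38), nor in the knockdown (0.04, SE 0.13, and 0.50, SE 0.25; adjusted p = 0.88 and 0.36). The list's median was -0.08 with PKLR and 0.30 with shPKLR, where 10 of 13 were higher and none passed, with 3 at an unadjusted p under 0.05. In the overexpression 5 of the 13 were higher and 8 lower. Each call held in 3 of 10 fits with 1 liver left out, those without GFP 2, 4 or 5 for Asns and those without GFP 1, GFP 5 or PKLR 3 for Atf5. Asns also missed the threshold without a filter (adjusted p = 0.061), with limma-voom (0.052) and in 1 fit of all 20 livers (0.087), as did Atf5 in that fit (0.098). In the knockdown experiment the Asns level was 0.58 ± 0.31 CPM in shLUC livers against 3.38 ± 4.02 CPM in shPKLR livers (SD, n = 5 each), and it was higher with GFP than with shLUC (2.99, SE 0.70, adjusted p = 0.016), so that the PKLR level lay near that of the other control. Without GFP 2 the log2 fold change of Asns was -1.73 and that of Atf5 -0.43. In the model of all livers 1 of 13 passed, against 5.5% of all genes: Asns (-4.74, SE 0.97, adjusted p = 0.0086). That call held in 20 of 20 fits with 1 liver left out but was lost with limma-voom (adjusted p = 0.10).

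Chaperones of the cytosol and mitochondria had no gene past the test in any of these comparisons. At an unadjusted p under 0.05 there was 1 of 12 in the knockdown and 0 in the overexpression. Of 12, 7 were higher with PKLR (median 0.08) and 4 higher with shPKLR (median -0.08). Hsp90aa1, a cytosolic HSP90, was at -0.32 (SE 0.16, adjusted p = 0.35) in the knockdown, Hsph1 at 0.25 (SE 0.16, adjusted p = 0.44) in the overexpression, and Hsf1, the heat shock transcription factor, at 0.33 (SE 0.13, adjusted p = 0.30) and 0.16 (SE 0.08, adjusted p = 0.27).

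**Figure D4:**
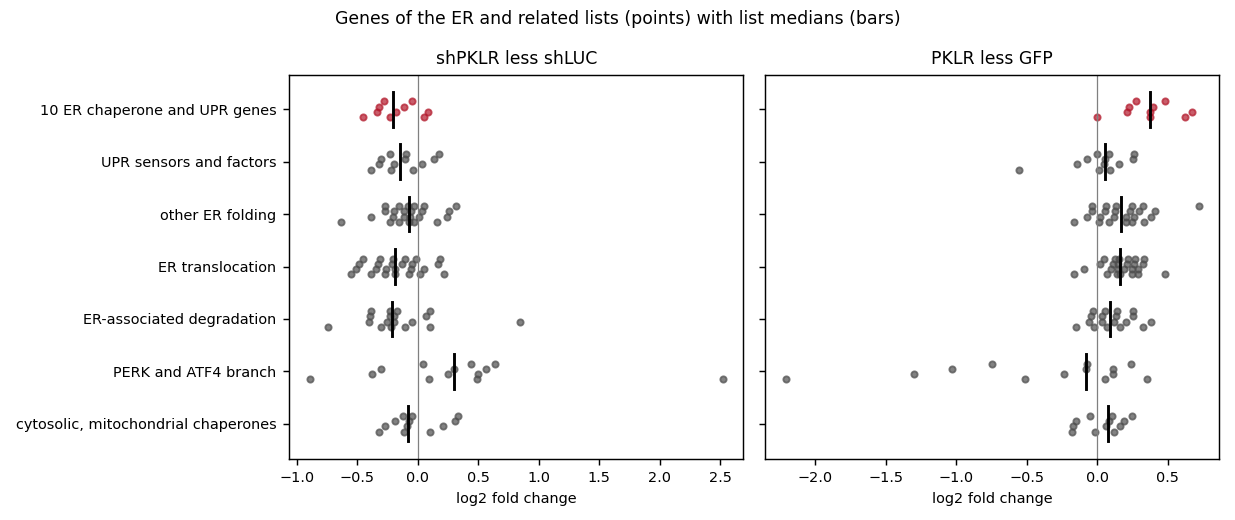
Log2 fold changes (horizontal axes) of single genes (points) in the 10-gene set and 6 related lists for shPKLR less shLUC (left) and PKLR less GFP (right), with the median of each list as a bar. The set's medians are -0.20 and 0.37, and those of the PERK and ATF4 branch are 0.30 and -0.08, with single genes on both sides of 0 in both panels.

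Markers of other cells also differed between groups. The plasma cell list had 4 tested genes, of which 2 fell with PKLR, where 0.846% of all genes fell. They were Igkc, an antibody light chain, from 8.47 ± 1.62 to 5.05 ± 0.91 CPM and Sdc1, which hepatocytes also make, from 211 ± 16.4 to 154 ± 15.3 CPM (SD, n = 5 each; edgeR adjusted p = 0.039 and 0.033). The summed plasma cell list, nearly all of it Sdc1, ran from 199 to 243 CPM with GFP and 147 to 185 CPM with PKLR, and from 143 to 209 CPM with shLUC and 95.02 to 236 CPM with shPKLR. Mzb1 was at 0.37 (SE 0.35, adjusted p = 0.61) in the overexpression. The 5 stellate cell markers summed to 90.5 to 217 CPM with GFP and 51.6 to 116 CPM with PKLR, and to 61.6 to 96.9 CPM with shLUC and 51.9 to 99.0 CPM with shPKLR. The 6 macrophage markers ran from 80.01 to 327 CPM with GFP and 71.5 to 225 CPM with PKLR, and from 104 to 193 CPM with shLUC and 97.3 to 267 CPM with shPKLR. All 6 were higher with shPKLR and none passed, among them Marco at 4.96 ± 2.19 CPM in shLUC livers against 16.95 ± 10.8 CPM in shPKLR livers (SD, n = 5 each). The model of all livers, in which Hyou1 passed, tested 6 macrophage, 5 stellate and 5 plasma cell genes. Of these 4 passed downward, where 2.75% of all genes did: Marco (-3.78, SE 1.00, adjusted p = 0.033), the stellate genes Col3a1 (-1.66, SE 0.43, adjusted p = 0.029) and Des (-1.01, SE 0.27, adjusted p = 0.035), and Igkc (-1.29, SE 0.36, adjusted p = 0.040). The stellate genes Col1a1 (-1.78, adjusted p = 0.065) and Reln (-0.43, adjusted p = 0.43) did not pass, and Lrat went the other way (0.37, adjusted p = 0.61). Col1a1 (2.05, SE 0.41, adjusted p = 0.0059) and Col3a1 (1.69, SE 0.31, adjusted p = 0.0033) were also higher with GFP than with shLUC. The 3 acinar markers, nearly all of it Cela1, summed to 14.2 to 28.3 CPM with shLUC, 11.1 to 22.0 CPM with shPKLR, 6.34 to 12.3 CPM with GFP and 8.72 to 29.5 CPM with PKLR. Cela1 was named here after its values were seen. It was at -0.44 (SE 0.22, adjusted p = 0.35) for knockdown and 0.91 (SE 0.37, adjusted p = 0.21) for overexpression. Of the 10 genes 8 had these signs, against 31.3% of the 15445 genes tested in both experiments. Cela1 was lower with GFP than with shLUC (-1.15, SE 0.31, adjusted p = 0.032). Cela2a, scarce and not tested, had the opposite direction in the knockdown. Its mean was 0.0937 ± 0.0374 CPM in shLUC livers but 0.305 ± 0.138 CPM in shPKLR livers (SD, n = 5 each). In GFP livers Cela2a averaged 0.203 ± 0.150 CPM, above the shLUC mean, and in PKLR livers 0.265 ± 0.115 CPM (SD, n = 5 each). Cpa1 had a median of 0 CPM, and the listed acinar genes Prss2 and Pnlip were not in both count tables. Whether Cela1 follows acinar cells was not tested, nor was the part of all these other cells in the levels of the 10 genes.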

How the data were processed

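Liver RNA of 20 mice was compared in 4 groups of 5, each column being matched to its library by the labels. The authors deposited 2 tables of raw read counts per gene. Per the labels' protocols a kit for stranded total RNA was used; per the submitters' processing notes the tools were HISAT2 and DESeq2 (no versions) and the builds GRCm38 and mm10. How reads were counted, with which annotation and strand setting, is not given in the sources used here, so reads of overlapping or antisense genes may be shared. Symbols, coordinates and exon lengths came from GENCODE M21 (GRCm38), which held 26912 of 27052 and 26146 of 26286 identifiers.

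Tests were edgeR 4.0.16 (quasi-likelihood, robust, filterByExpr, TMM) in R 4.3.3 with Benjamini-Hochberg adjustment over all genes tested (15611 knockdown, 15842 overexpression). The difference and the control contrast came from 1 model of 20 livers on 16407 genes. All adjusted p-values are from edgeR unless another tool is named. The SE is the size of the log2 fold change over the root of F. CPM used 1 TMM scaling of all livers; log2 CPM had a prior count of 2. The edgeR fits were tested on simulated counts. Libraries of 1 group differed by far more than sampling noise. Alternatives were RLE, other filters, DESeq2 1.42.0, limma-voom (limma 3.58.1), a replicate block, genes left out, 1 joint fit, thinning of the deepest library and each liver left out. The genes and lists were chosen with earlier results of these data known. Named from each list were genes called in either experiment or, failing these, up to 3 with the smallest p in each, with Atf4, Ddit3, Atf6, Ern1, Eif2ak3, Pklr and the 5 genes most alike; Ssr1, Ssr3, Stt3a and the cell markers were named after their values were seen. The sources used here give no sequencing batch.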

Additional observations from a re-analysis of the deposited data

Results flagged for a closer look

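Among the genes named by rule, these had overexpression and knockdown effects that differed in the model of all livers; Ssr1, Ssr3, Stt3a and the cell markers that also passed are given in the report. The log2 differences (overexpression less knockdown) were 1.10 for Hyou1, 1.03 for Hspa13, 0.91 for Sec23b, 0.70 for Sel1l, 0.59 for Derl2, 0.97 for Herpud2 and 0.53 for Atf6b, against 5.77 for Pklr and -4.74 for Asns.

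In 5 of 128 groups of 5 livers 1 liver stood far from the others, judged by the gap to its nearest neighbour as a share of the whole range (critical value 0.71); chance gives about 1 in 20. They were Asns in GFP 2 (9.78 CPM, share 0.754), Edem1 in shLUC 4 (99.7 CPM, share 0.726), Eif2ak3 in PKLR 2 (10.2 CPM, share 0.735), Hsp90aa1 in shLUC 3 (109.6 CPM, share 0.855) and Pklr in PKLR 4 (378 CPM, share 0.731). None was 1 of the 10 genes of the set.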

How the results depend on the processing

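The number of genes called in the knockdown was 1, and 7 with RLE, with mitochondrial and rRNA genes left out or with shPKLR 4 thinned, 17 without a filter, 260 with DESeq2, 8 with limma-voom, 114 in 1 fit of all libraries and 1 to 12 with 1 liver left out. In the overexpression it was 322 (188 up, 134 down), 1107 with DESeq2 (533 up, 574 down), 338 in 1 fit of all libraries (120 up, 218 down) and 128 to 469 with 1 liver left out. For the difference it was 902, 1626 with DESeq2 and 485 to 1384 with 1 liver left out, and for the controls 953 and 415 to 1254. Of the set's 10 genes, DESeq2 called 1 in the overexpression and 2 in the difference (Hyou1 and Pdia4, the latter at an adjusted p of 0.039). With 1 liver left out the difference had 0 or 1 call. With PKLR 5 and shLUC 1 both left out, chosen after seeing the data, it had 0 of the set and 432 of all genes. Counts of the set's calls were otherwise as in the text.

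Whether replicate numbers pair the livers is not given by the labels. Correlations of same-numbered livers ran from -0.249 to 0.382 in the knockdown and -0.108 to 0.29 in the overexpression. Of 10 livers each, 2 and 3 were closest to their own number. With so few livers these values cannot exclude a pairing. With the replicate number as a block 3 genes were called in the knockdown, 544 in the overexpression (1 of the set, Hyou1) and 3 of the set in the difference (Hspa5, Pdia4 and Hyou1).

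Herpud1 changed sign most often: to -0.034 with limma-voom and -0.040 with the block in the knockdown, to -0.0098 with RLE and with DESeq2, -0.014 with the CPM filter and -0.016 in 1 fit of all libraries in the overexpression, and to 0.095 with limma-voom and 0.10 with the block in the difference. With 1 liver left out it ran from -0.090 to 0.28, -0.20 to 0.13 and -0.30 to 0.080. Signs also changed with 1 liver left out in the knockdown for Calr (-0.11 to 0.068), Creld2 (-0.35 to 0.021), Sdf2l1 (-0.31 to 0.14) and Xbp1 (-0.033 to 0.12), and in the controls for Sdf2l1 (-0.44 to 0.0043) and Xbp1 (-0.011 to 0.14). The cause was not tested. The lowest count of any of the 10 genes in a library was 473.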
